A study of Saccharomyces cerevisiae with 55 samples.

Results

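HSP30 (YCR021C, on yeast chromosome III) was measured by 1 probe of 6256, which makes it 1 of 6249 genes or probes in the table, and it had a value on all 55 arrays. It is the row whose probe carries this symbol, and it was selected on its log2 ratios across these strains and stresses, so its values are given as a description and no test is made on them. Hsp30 is a hydrophobic heat shock protein of the yeast plasma membrane. It restrains Pma1, the proton ATPase that pumps protons out of the cell and uses a large share of cellular ATP, and it accumulates during heat shock, exposure to ethanol or weak organic acids, and entry into stationary phase. Its induction has been described as separate from the usual heat shock factor Hsf1 and from the general stress factors Msn2 and Msn4. The related genes YRO2 and MRH1 encode membrane proteins of the same family.

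Each array set 2 RNA samples of Saccharomyces cerevisiae against each other, and each value is a log2 ratio with the mutant or the stressed cells on top. The log base is not stated and was read from the values. All strains were MATa cells of the W303 background. The 9 altered strains were kcs1/vip1 (without the inositol pyrophosphate kinase genes KCS1 and VIP1), arg82 and ipk1 (without inositol polyphosphate kinase genes), vip1, kcs1, Vip1D487A (an altered Vip1), rpd3 (without the histone deacetylase gene RPD3), snt1 (without a subunit gene of the Set3 complex) and Rpd3ibs (an altered RPD3, with an abbreviation that the labels do not spell out). The wild type was ACY044. Cells were in mid-log growth in YEPD medium, called log growth here, or were stressed for 20 min with 0.375 M KCl, 0.4 mM H2O2 or heat of 42 °C, or treated with 200 nM rapamycin, an inhibitor of the growth-controlling kinase complex TORC1. A mutant was always set against wild type cells in the same condition, except on the arrays that compared conditions within kcs1/vip1. The study asked how inositol pyrophosphates and histone deacetylase complexes act in the environmental stress response. Of the 55 arrays 54 fell into 27 comparisons, 7 with 3 arrays, 13 with 2 and 7 with 1. The labels do not say that arrays came from separate cultures, so errors and p-values measure only the spread between arrays.

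Some arrays go against their labels or stand apart. Of 37 pairs of a deleted gene and an array of its mutant in log growth or KCl, 25 had no value for the gene and 11 had values of -9.33 to -4.17. The exception was the second log growth array labelled kcs1, where KCS1 was -0.30. LEU2, a leucine synthesis gene named after its values were seen, was -4.41 to -3.97 on the 6 kcs1/vip1 over wild type arrays in KCl and log growth, but 3.19 and 1.57 on those labelled H2O2 and 1.47 on the one labelled heat. KCS1 and VIP1 were both missing on the kcs1/vip1 arrays in H2O2, and VIP1 was -0.01 on the array labelled heat. The library labelled kcs1/vip1 in H2O2 or heat is therefore named by its label throughout. The second Vip1D487A array of each condition was labelled a dye swap, and over genes it correlated with its partner at r = 0.15 in KCl and 0.02 in log growth. Its sign was kept as deposited. HSP30 varied more between arrays of a group than most genes. Its pooled SD within groups was 0.86, against 0.367 for the median gene, and was larger than that of 99.2% of the 4413 genes with a value on all 54 assigned arrays.

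In KCl HSP30 was higher in every mutant than in wild type. On all 21 mutant arrays in KCl the log2 ratio was above 0 (20 of 21 if the dye-swapped Vip1D487A arrays are turned in sign), with a lowest value of 1.64, a median of 3.87 and a highest of 6.93. Turned in that way, the lowest value was -2.35. HSP30 ranked among the 25 highest values on 17 of these 21 arrays as deposited and on 16 with the sign turned. The double mutant kcs1/vip1 had HSP30 ratios of 4.66, 6.93 and 6.25 in KCl (mean 5.95 ± 1.17, SD, n = 3), a mean 61.7-fold above wild type in KCl. The arg82 strain came close, with 5.10, 4.89 and 5.88 (mean 5.29 ± 0.52, n = 3), and its range overlapped that of kcs1/vip1. In vip1 the ratios were 3.80, 3.87 and 4.19 (mean 3.95 ± 0.21, n = 3), and HSP30 was the highest gene on each of these 3 arrays. With array spreads made equal the order turned, with 4.24 in kcs1/vip1 and 5.09 in vip1.

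The kcs1 strain had HSP30 ratios in KCl of 2.49 and 4.53 (mean 3.51 ± 1.44, n = 2). Vip1D487A had 4.09 and 2.35 (mean 3.22 ± 1.23, n = 2), the second from the dye-swapped array. With that array's sign turned the mean was 0.87. In ipk1 the ratios were 2.83, 2.76 and 1.64 (mean 2.41 ± 0.67, n = 3). Among strains of the deacetylase complexes rpd3 had 4.90 on its only array (2.90 with equal spreads), snt1 had 2.63 and 2.61 (mean 2.62 ± 0.01, n = 2) and Rpd3ibs had 2.09 and 2.08 (mean 2.08 ± 0.01, n = 2). The 3 replicated strains with the lowest means, ipk1, snt1 and Rpd3ibs, lay below every array of kcs1/vip1, arg82 and vip1.

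In log growth the strains were further apart. HSP30 was above 0 on 16 of 18 mutant arrays (15 with the dye-swapped sign turned), with a lowest value of -0.92, a median of 1.42 and a highest of 5.34. The 2 arrays below 0 were both of vip1, at -0.92 and -0.70 (mean -0.81 ± 0.16, n = 2). HSP30 was highest in rpd3, at 4.76 on 1 array, and in kcs1/vip1, at 3.78, 5.34 and 4.52 (mean 4.55 ± 0.78, n = 3), which is 23.4-fold above unstressed wild type. Intermediate ratios were found in snt1 with 1.39 and 2.30 (mean 1.84 ± 0.64), Rpd3ibs with 1.45 and 2.16 (mean 1.81 ± 0.50) and arg82 with 1.68 and 1.87 (mean 1.77 ± 0.13, n = 2 each). They overlapped each other. HSP30 was 1.31 and 0.65 in Vip1D487A (mean 0.98 ± 0.47, or 0.33 with the sign of the dye-swapped array turned), 0.47 and 0.86 in ipk1 (mean 0.67 ± 0.28) and 0.13 and 0.99 in kcs1 (mean 0.56 ± 0.61, n = 2 each). The kcs1 value of 0.99 comes from the array on which KCS1 was -0.30.

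**Figure D1:**
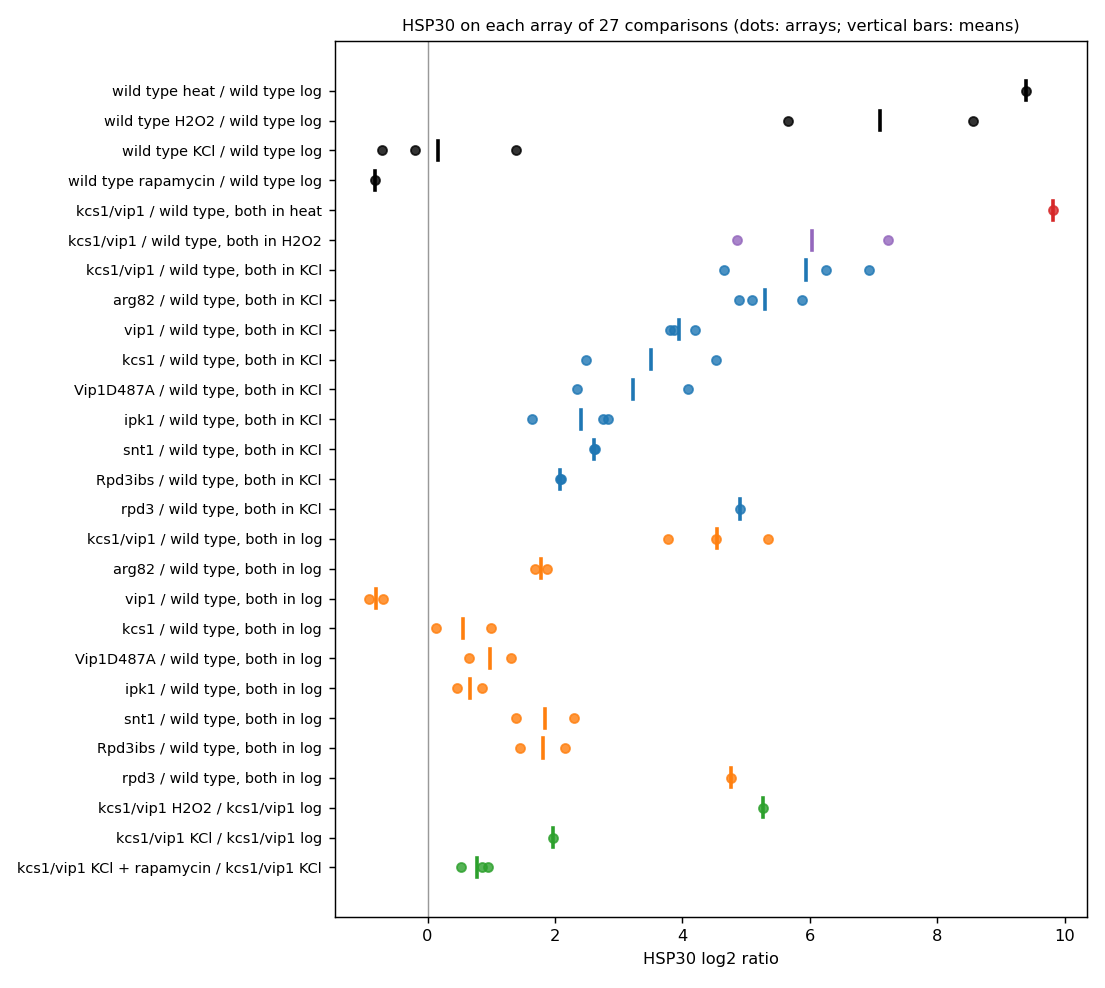
HSP30 log2 ratio (horizontal axis) on each array of the 27 comparisons, with 1 dot per array and a vertical bar at each mean. All mutant over wild type dots in KCl lie to the right of 0, between 1.64 and 6.93, while the 2 vip1 dots in log growth lie to the left of it.

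Within a strain the difference between the conditions was larger in the single kinase mutants than in the deacetylase mutants. The mutant over wild type ratio of HSP30 was higher in KCl than in log growth by 4.76 in vip1, 3.51 in arg82, 2.95 in kcs1, 2.24 in Vip1D487A and 1.74 in ipk1, and in none of these did KCl and log arrays overlap. In snt1 the difference was 0.78, without overlap. Vip1D487A lay below snt1, at 0.54, with the sign of the dye-swapped arrays turned. In kcs1/vip1 it was 1.40, and the lowest KCl array (4.66) lay below the highest log array (5.34). In Rpd3ibs it was 0.28, with overlap, and in rpd3 0.14 with 1 array a condition.

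Most slides, read from the barcode number in the array titles, carried several arrays. In this way 16 pairs of a KCl and a log array of 1 strain shared a slide. HSP30 was higher in KCl in 15 of the 16 pairs (14 with the sign of the dye-swapped arrays turned), and the differences ran from -0.08 in Rpd3ibs to 4.72 in vip1. The vip1 pairs gave 4.72 and 4.57, the arg82 pairs 3.42 and 3.02, and the Vip1D487A pairs 2.78 and 1.70, the second -1.70 with its sign turned. The kcs1/vip1 pairs gave 0.88 and 1.59, the ipk1 pairs 2.36 and 1.90, and the only kcs1 pair 2.36. The snt1 pairs gave 1.24 and 0.31, the Rpd3ibs pairs 0.64 and -0.08 and the rpd3 pair 0.14. Within slides vip1 and arg82 stood at the top and Rpd3ibs and rpd3 at the bottom, as over all arrays. The pairs reuse arrays of that overall difference, for Rpd3ibs and rpd3 all of them. The shared order is therefore no separate check.

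**Figure D2:**
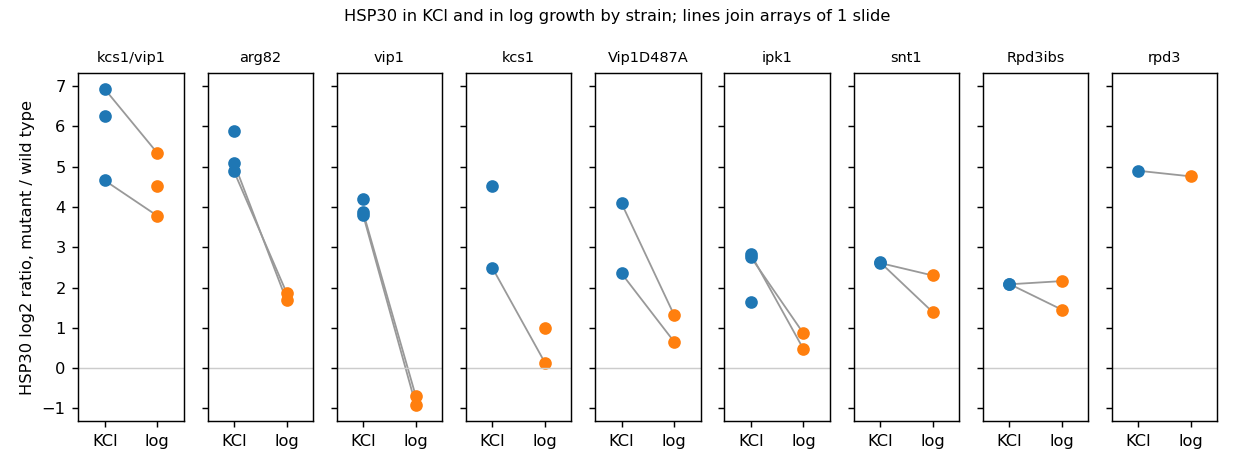
HSP30 log2 ratio of each mutant over wild type (vertical axis) in KCl (left) and log growth (right), with 1 panel per strain, 1 dot per array and lines between arrays of the same slide. The lines of vip1 span 4.72 and 4.57, whereas those of Rpd3ibs span 0.64 and -0.08.

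Wild type HSP30 itself showed no common direction in KCl. KCl over log growth was -0.71, 1.39 and -0.19 on the 3 wild type arrays (mean 0.16 ± 1.09), so 1 array was above 0 and 2 were below. Without the second array the mean was -0.45. The first of these arrays was a dye swap, and over genes it correlated with the others at r = 0.89 and 0.91. Adding the wild type response to a mutant's KCl ratio and subtracting its log growth ratio gives the mutant's own response to KCl. This sum was 4.93 ± 0.65 in vip1 (SE from the SDs of the 3 groups), which is 30.4-fold, then 3.68 ± 0.71 in arg82, 3.11 ± 1.27 in kcs1, 2.40 ± 1.13 in Vip1D487A and 1.91 ± 0.77 in ipk1. With the sign of the dye-swapped arrays turned the Vip1D487A sum was 0.71 ± 3.42, below those of ipk1, kcs1/vip1 and snt1. The sum was 1.56 ± 1.03 in kcs1/vip1, where the array that set KCl directly against log growth gave 1.97. In snt1 it was 0.94 ± 0.78, in Rpd3ibs 0.44 ± 0.72 and in rpd3 0.30 with no error. With equal spreads it was 0.54 in kcs1/vip1 and -0.74 in rpd3. All 9 sums share the same 3 wild type arrays. For 5 same-slide pairs the slide also held a wild type KCl array. With its value of 1.39 the response was 3.75 in ipk1 and 2.27 in kcs1/vip1. On the slide where it was -0.19 the response was 4.38 in vip1, 2.83 in arg82 and 2.17 in kcs1. Matched in this way ipk1 lay above arg82 and kcs1, and kcs1/vip1 above kcs1, unlike in the sums.

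The sums for the level reached in KCl had another order. Relative to unstressed wild type, HSP30 in KCl was at 6.11 ± 0.92 in kcs1/vip1, 5.45 ± 0.70 in arg82 and 5.06 in rpd3, followed by vip1 at 4.12 ± 0.64, kcs1 at 3.67 ± 1.20, Vip1D487A at 3.38 ± 1.08, snt1 at 2.78 ± 0.63, ipk1 at 2.57 ± 0.74 and Rpd3ibs at 2.25 ± 0.63. With the dye-swapped array turned, Vip1D487A was lowest of the 9 strains, at 1.04 ± 3.28. Log growth ratios were 4.55 in kcs1/vip1 and 4.76 in rpd3, so the sums put KCl 2.96-fold and 1.23-fold above log growth within these strains. In vip1 and arg82 HSP30 was at -0.81 and 1.77 in log growth.

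**Figure D3:**
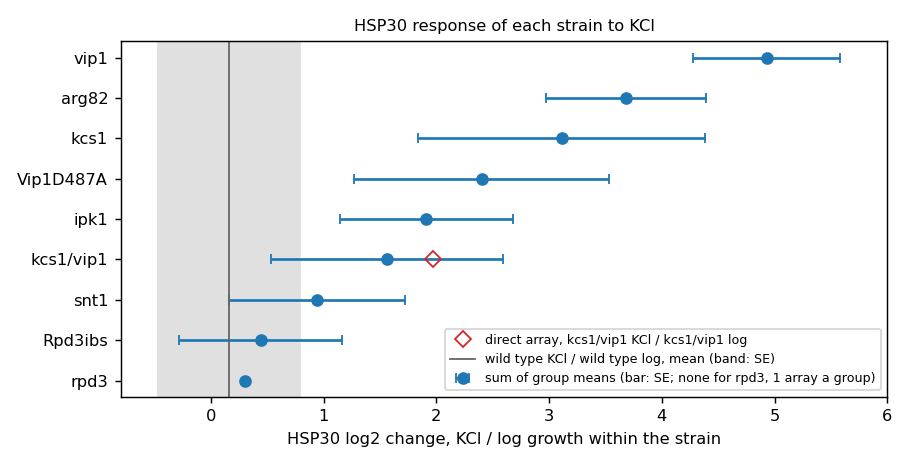
HSP30 log2 change from KCl over log growth within each strain (horizontal axis), as the sum of group means with its SE, beside the direct kcs1/vip1 array at 1.97 and the wild type mean of 0.16 with its SE as a band. The sums run from 4.93 in vip1 to 0.30 in rpd3.

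In wild type cells HSP30 was far higher in peroxide and heat than in KCl, each relative to log growth. H2O2 over log growth gave 8.56 and 5.65 (mean 7.11 ± 2.06, n = 2), a mean 138-fold difference, and heat over log growth gave 9.39 on 1 array, the highest value of that array (5.52 with equal spreads). Rapamycin over log growth gave -0.83 on 1 array, whose median over all genes was 0.38, and HSP30 ranked 4982 from the top there. The wild type H2O2 arrays, the lower at 5.65, lay above all wild type KCl arrays, the highest at 1.39.

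On the arrays labelled kcs1/vip1 over wild type, HSP30 was 7.23 and 4.85 in H2O2 (mean 6.04 ± 1.68, n = 2) and 9.82 in heat, in each case the highest gene of the array. Set against its own log growth, kcs1/vip1 in H2O2 gave 5.27 on 1 array (9.17 with equal spreads), again the highest gene. The sum of group means for the same response was 8.60 ± 1.93, and the direct value was 3.33 below it on the log2 scale. For heat the sum relative to unstressed wild type came to 19.21, which exceeds the largest absolute log2 ratio of the table, 15.58. These sums rest on the arrays whose LEU2 ratio goes against the other kcs1/vip1 arrays. HSP104, a disaggregase induced by heat, was 5.45 on the array labelled kcs1/vip1 over wild type in heat and 5.85 on that of wild type heat over log growth, while HSP30 was 9.82 and 9.39 on the same pair of arrays. Rapamycin added to KCl, over KCl alone, gave HSP30 ratios of 0.52, 0.95 and 0.85 in kcs1/vip1 (mean 0.77 ± 0.23, n = 3), all above 0 and all smaller than any kcs1/vip1 over wild type ratio.

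Put in order, the 27 means of HSP30 ran from -0.83 for wild type rapamycin over log growth to 9.82 for the array labelled kcs1/vip1 in heat. HSP30 was the highest gene on 11 of the 54 arrays and among the 10 highest on 24 (23 with the dye-swapped sign turned). Of the 26 pairs of neighbours in that order 20 had overlapping ranges, and of the 17 pairs in which both means were replicated 16 overlapped. The exception was the step between Vip1D487A in log growth (0.65 to 1.31) and arg82 in log growth (1.68 to 1.87). It rests on the dye-swapped array, since with the sign turned Vip1D487A in log growth stood between wild type KCl and kcs1 in log growth, and all 17 such pairs overlapped. Most neighbouring means are therefore not separated by more than their spread.

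The paralogs of HSP30 did not share this pattern across the mutants, but like HSP30 they were above 0 in heat. Wild type heat over log growth gave 2.18 for YRO2 and 1.21 for MRH1 on 1 array. The array labelled kcs1/vip1 in heat gave 1.65 and 0.43. Set directly against log growth within kcs1/vip1, they were at 2.26 and 1.39 in KCl and at 1.91 and 1.80 in H2O2, with 1 array each. YRO2 rose by 3.29 ± 0.52 in wild type in KCl over log growth (n = 3, limma adjusted p = 1.99e-10), with values of 3.75, 3.38 and 2.73, all above every HSP30 value of that comparison. In kcs1/vip1 over wild type YRO2 was -0.43, 1.26 and 0.51 in KCl (mean 0.45 ± 0.85, not passing) and 1.95, 4.27 and 2.79 in log growth (mean 3.00 ± 1.17, adjusted p = 1.29e-08). Its ratio over wild type was lower in KCl than in log growth by 2.56 on the log2 scale (limma adjusted p = 7.9e-05). The same difference for HSP30 was 1.40, in the opposite direction. Within the strain both were above 0 in KCl over log growth, with YRO2 at 2.26 and HSP30 at 1.97 on the direct array. In arg82 YRO2 fell both in KCl (-1.11 ± 0.19, n = 3, adjusted p = 0.0104) and in log growth (-1.93 ± 0.11, n = 2, adjusted p = 0.0014), where HSP30 was at 5.29 and 1.77. YRO2 also rose in H2O2 in wild type (1.86 ± 0.98, n = 2, adjusted p = 0.000342) and fell in Rpd3ibs in KCl (-1.46 ± 0.13) and snt1 in log growth (-1.50 ± 0.22). Of its 20 tested comparisons 3 were higher, 4 lower and 13 did not pass. The share of all genes that passed was 31.9% and 20.4% in Rpd3ibs in KCl and log growth, 23.8% and 24.8% in ipk1, 7.87% and 10.3% in snt1, 7.97% and 0.44% in kcs1, and 2.15% and 0.0359% in Vip1D487A. It was 5.02% in kcs1/vip1 in H2O2 and 5.06% in kcs1/vip1 with rapamycin in KCl. For KCl minus log it was 27.2% in kcs1/vip1, 5.68% in vip1, 3.82% in arg82 and 6.86% in Rpd3ibs. With arrays left out in turn the YRO2 calls in wild type KCl, in kcs1/vip1 in log growth and for the difference within kcs1/vip1 passed each time. Its calls in arg82, Rpd3ibs, snt1 and wild type H2O2 were each lost without at least 1 array. On the rpd3 arrays YRO2 was -2.40 in KCl and -1.78 in log growth, against 4.90 and 4.76 for HSP30.

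MRH1 fell in arg82, to -2.26, -2.65 and -2.47 in KCl (mean -2.46 ± 0.20, adjusted p = 8.46e-06) and to -2.66 and -2.63 in log growth (mean -2.65 ± 0.02, adjusted p = 0.000169). HSP30 was higher in arg82 than in wild type on all 5 of these arrays. MRH1 rose in kcs1/vip1 in KCl (0.58, 2.32 and 1.98, mean 1.63 ± 0.92, adjusted p = 0.000489), in kcs1/vip1 with rapamycin in KCl (mean 1.51 ± 0.56, adjusted p = 0.0105) and on the log growth arrays labelled kcs1 (mean 1.94 ± 1.19, adjusted p = 0.0395). The last 2 calls were lost when an array was left out. It did not pass in 13 of 18 tested comparisons. In wild type in KCl MRH1 was -0.19 and -1.03 on the 2 arrays with a value. Across the 27 comparison means Pearson's r with HSP30 was 0.18 for YRO2 and 0.24 for MRH1, a description over means that share arrays and strains.

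**Figure D4:**
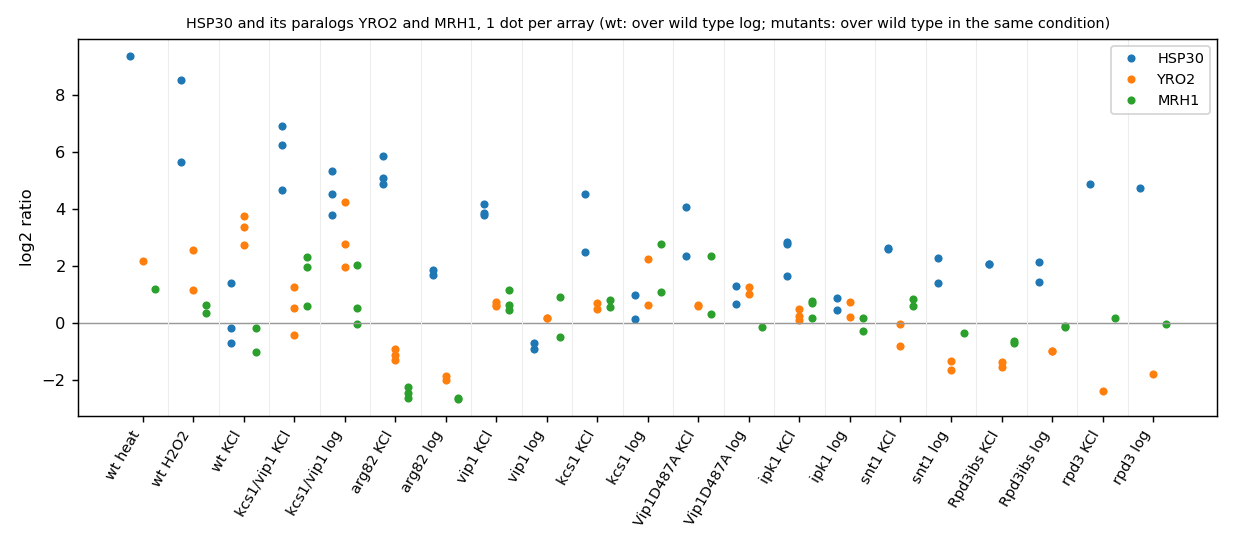
Log2 ratios (vertical axis) of HSP30, YRO2 and MRH1 with 1 dot per array, for wild type stresses over log growth and for each mutant over wild type in KCl and log growth. In arg82 the HSP30 dots lie above 0, between 1.68 and 5.88, while those of YRO2 and MRH1 lie below 0.

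HSP30 also parted from the general stress genes in several comparisons, though not in all. Of 17 measured genes of the Msn2/4 response 17 rose in wild type in KCl (median 6.88, against -0.02 over all genes tested), where HSP30 averaged 0.16. In that comparison 60.9% of all genes tested passed, 29.6% higher and 31.3% lower. HSP12, a small membrane-associated stress protein, rose to 9.26, 10.80 and 10.19 there (mean 10.08 ± 0.78, adjusted p = 8.89e-14). In wild type in H2O2 all 17 rose as well (median 2.70, 43.4% of all genes passing, 22% higher and 21.4% lower). HSP12 rose by 3.00 ± 0.25, less than the 7.11 of HSP30, and its call was lost whichever array was left out. In kcs1/vip1 over wild type in KCl 10 of the 17 fell and none rose (median -0.95, 50.3% of all genes passing, 24.8% higher and 25.6% lower), while HSP30 was at 5.95. In kcs1/vip1 in log growth 15 of 17 rose (median 1.59, 37.9% of all genes passing, 18.9% higher and 19% lower), and HSP12 and HSP30 were at 6.11 ± 0.83 and 4.55 ± 0.78. HSP12 averaged -0.20 in KCl in this strain and did not pass. Its ratio over wild type was thus lower in KCl than in log growth by 6.31 on the log2 scale (limma adjusted p = 9.02e-06). Within the strain HSP12 was higher in KCl than in log growth on the array that compared them directly.

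Among the other strains 1 of 16 tested Msn2/4 genes rose in vip1 in KCl (HXK1, 9.4% of all genes passing, 4.63% higher and 4.77% lower), and none of 17 passed in vip1 in log growth (19.1% of all genes passing, 9.12% higher and 9.97% lower), where HSP30 was at 3.95 and -0.81. The HXK1 call was lost without the first array, and with equal spreads 3 of 16 rose in KCl. In arg82 7 of 17 rose in KCl (median 0.69, 32% of all genes passing, 13.9% higher and 18% lower) and 12 of 15 in log growth (median 1.69, 17.2% of all genes passing, 7.63% higher and 9.58% lower). With an array left out, 1 to 3 rose in KCl and 2 to 4 in log growth. HSP30 in arg82 stood the other way round, at 5.29 in KCl and 1.77 in log growth. HSP12 in arg82 was lower in KCl than in log growth by 4.07 on the log2 scale (adjusted p = 0.046), and this call was lost whichever arg82 array was left out. On the rpd3 arrays HSP12 was -2.06 in KCl and -2.01 in log growth, where HSP30 was 4.90 and 4.76. In kcs1 in KCl 6 of 17 Msn2/4 genes rose (median 1.20, 7.97% of all genes passing), with HSP30 at 3.51. In snt1 3 of 15 rose in KCl (median 0.86, 7.87% passing) and 7 of 17 in log growth (median 1.01, 10.3% passing). HSP30 was at 2.62 and 1.84 there. In Rpd3ibs in KCl 7 of 17 fell and none rose (median -0.90, 31.9% passing), with HSP30 at 2.08.

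Counted in either direction, chaperone genes of the Hsf1 response passed at a higher share than all genes in wild type in H2O2. In wild type in KCl the share was about the same, but the passing chaperones mostly rose. Of 20 measured, 13 rose in wild type in H2O2 (median 1.18), which is 65% against 43.4% of all genes (22% higher and 21.4% lower). In wild type in KCl 11 rose and 1 fell (median 0.75), which is 60% against 60.9% (29.6% higher and 31.3% lower). HSP104 rose by 2.69 ± 0.03 in H2O2 (adjusted p = 4.97e-10) and by 3.42 ± 0.18 in KCl (adjusted p = 1.24e-15), and its ratio in heat was 5.85, against 9.39 for HSP30. In kcs1/vip1 over wild type 1 rose and 6 fell in KCl (median -0.39), 35% against 50.3% of all genes (24.8% higher and 25.6% lower). In log growth 7 rose and none fell in this strain (median 0.40), 35% against 37.9% (18.9% higher and 19% lower). In vip1 in KCl 3 of 20 rose (2 with any array left out, 8 with equal spreads), among them BTN2 by 2.69 ± 0.46 and SSA4 by 1.62 ± 0.51. That is 15% against 9.4% of all genes (4.63% higher and 4.77% lower). In arg82 in KCl none rose and 4 fell (1 or 2 with an array left out), with SSA2 at -1.46 ± 0.26, which did not pass without the second array. That is 20% against 32% of all genes (13.9% higher and 18% lower). HSP30 exceeded the median of these chaperones in each of these comparisons other than wild type in KCl. Since HSP30 was chosen on these same values, this outcome does not set it apart from the chaperones.

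PMA1, whose product Hsp30 restrains, passed in 5 of 14 tested comparisons, each time higher. In kcs1/vip1 over wild type in KCl it was 0.16, 1.39 and 1.92 (mean 1.16 ± 0.90, adjusted p = 0.00563), and without the third array the mean was 0.78. In arg82 in KCl it rose by 1.60 ± 0.27 (2 values, adjusted p = 0.00454) and in kcs1/vip1 with rapamycin in KCl by 1.68 ± 0.56 (n = 3, adjusted p = 0.00264). It also rose on the arrays labelled kcs1/vip1 over wild type in H2O2 (1.77 ± 0.24) and kcs1 in log growth (1.95 ± 0.57). Each of the 5 calls was lost without at least 1 array. In vip1 in KCl PMA1 was 1.19, 1.11 and 0.08 and did not pass, with HSP30 at 3.80, 3.87 and 4.19 on the same arrays. Of 9 genes of the proton ATPase list 4 rose in arg82 in KCl, 44.4% against 32% of all genes (13.9% higher and 18% lower). Among them were PMP3 at 2.17 ± 0.54 and the Pma1-associated proteolipid gene PMP1 at 1.79 ± 0.54, but none passed without the second array. In kcs1/vip1 3 rose and 1 fell in KCl, 44.4% against 50.3% of all genes (24.8% higher and 25.6% lower). In log growth 5 rose and 1 fell, 66.7% against 37.9% (18.9% higher and 19% lower), but without the second array 1 rose. None passed in vip1 in KCl, where 9.4% of all genes did. In wild type 6 rose and 1 fell in KCl, 77.8% against 60.9% of all genes (29.6% higher and 31.3% lower). Among those that rose was PTK2, a kinase gene that activates Pma1, by 2.81 ± 0.14. In wild type in H2O2 5 rose, 55.6% against 43.4% of all genes (22% higher and 21.4% lower). Without the first KCl array 3 rose, and without the first or second H2O2 array 1 or 3 rose. With equal spreads 2 rose in each of these stresses, and in kcs1/vip1 1 rose in KCl and 3 in log growth.

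PDR12, the plasma membrane pump for weak organic acid anions, was among the 10 genes with profiles most like that of HSP30. It fell to -1.41, -2.35 and -2.47 in wild type in KCl (mean -2.08 ± 0.58, adjusted p = 2.32e-08) and was lower than wild type in log growth in vip1 (-1.80 ± 0.21), ipk1 (-1.61 ± 0.13), arg82 (-1.27 ± 0.11), snt1 (-0.98 ± 0.25) and kcs1/vip1 (-0.91 ± 0.59). These were its only 6 calls in 20 tested comparisons, and those other than in wild type KCl were each lost without at least 1 array. Its ratio was higher in KCl than in log growth by 1.63 in vip1 (adjusted p = 0.0167), 1.44 in arg82 (adjusted p = 0.0405) and 1.08 in kcs1/vip1 (adjusted p = 0.0256), and each of these calls was lost when an array was left out. HSP30 differed by 4.76, 3.51 and 1.40 in the same strains. Of 11 measured weak acid genes, a list that holds PDR12 and YRO2, 8 rose and 2 fell in wild type in KCl (5 rose with equal spreads), with SPI1 at 9.45 ± 0.58. That is 90.9% against 60.9% of all genes (29.6% higher and 31.3% lower). In H2O2 5 rose and 2 fell (1 rose and none fell without the first array, 3 and none without the second). That is 63.6% against 43.4% of all genes (22% higher and 21.4% lower). In kcs1/vip1 over wild type none rose and 4 fell in KCl (2 without the first array, 1 with equal spreads), 36.4% against 50.3% of all genes (24.8% higher and 25.6% lower). In log growth 4 rose and 2 fell, 54.5% against 37.9% (18.9% higher and 19% lower). None passed in vip1 in KCl, where 9.4% of all genes did.

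Potassium and sodium transport genes gave no common direction beside HSP30. In wild type in KCl 4 of 9 rose and 2 fell, 66.7% against 60.9% of all genes, with the sodium pump gene ENA1 at 5.10 ± 0.77. In kcs1/vip1 in KCl 2 rose and 2 fell, 44.4% against 50.3% of all genes. In arg82 in KCl 2 rose and 1 fell, 33.3% against 32%. The passing shares were thus near those of all genes. PHO89, a sodium-phosphate cotransporter gene, rose by 3.10 ± 0.85 in kcs1/vip1 and 6.21 ± 0.32 in arg82. In kcs1/vip1 1 rose and 1 fell without the second array or with equal spreads, and in arg82 1 rose without the third. Of 12 genes of eisosomes and their membrane compartment only SUR7 and NCE102 carried a named probe. NCE102 rose in KCl in arg82 (1.84 ± 0.28), vip1 (1.22 ± 0.62) and kcs1/vip1 (0.78 ± 0.25), and in wild type by 3.94 ± 0.32. Its calls in vip1 and kcs1/vip1 were lost whichever array was left out.

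The neighbours of HSP30 on chromosome III passed in some of the 20 comparisons tested. Of the 2 nearest annotated genes on each side MAK31 and HTL1 had a named probe, and YCR022C and YCR023C had none. In arg82 in KCl MAK31 rose by 1.26 ± 0.27 (adjusted p = 0.00199) and HTL1 by 1.12 ± 0.58 (adjusted p = 0.0272), and in kcs1/vip1 in KCl they rose by 1.04 ± 0.54 and 1.46 ± 1.24. Of these only the MAK31 call in arg82 passed with each array left out. HSP30 was at 5.29 and 5.95 in these comparisons. In ipk1 in log growth both were above the 0.67 of HSP30, MAK31 at 1.65 ± 1.51 (adjusted p = 0.00278) and HTL1 at 1.84 ± 1.44 (adjusted p = 0.00675), and neither passed without the second array. MAK31 also fell in wild type in KCl (-0.95 ± 0.57, adjusted p = 0.00673, not passing without the first array) and HTL1 rose in kcs1/vip1 in log growth (0.97 ± 1.38, adjusted p = 0.0476, not passing without the first or the third). Of 20 tested comparisons MAK31 was higher in 3 and lower in 1, HTL1 was higher in 4, and 16 did not pass for each gene. Of all genes 32% passed in arg82 in KCl, and 50.3% and 37.9% in kcs1/vip1 in KCl and log growth. The share was 24.8% in ipk1 in log growth and 60.9% in wild type in KCl. Neither passed in vip1 in KCl, where 9.4% of all genes did, with MAK31 at 0.63, 0.54 and 0.29.

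Genes of the a-cell type were lower in kcs1/vip1, arg82 and Rpd3ibs. All 5 a-cell markers fell in kcs1/vip1 in KCl (3 without the second array) and in log growth (4 without the third). BAR1 was at -4.93 ± 0.23 and -4.55 ± 0.58 there. In arg82 5 of 5 fell in KCl (4 with any array left out) and 4 of 5 in log growth, on 2 arrays. Of all genes 25.6% and 19% were lower in kcs1/vip1 in KCl and log growth, and 18% and 9.58% in arg82. In Rpd3ibs, whose HSP30 in KCl was 2.08, 4 of 5 fell in KCl and 5 of 5 in log growth, with BAR1 at -4.07 ± 0.60 and -3.88 ± 0.83. Of these, 2 or 3 in KCl and, without the first array, 2 in log growth passed with an array left out. In Rpd3ibs 15.7% of all genes were higher and 16.2% lower in KCl, and 10.3% higher and 10.1% lower in log growth. STE3, the only alpha-cell marker with a named probe, fell as well in KCl, to -2.40 ± 0.27 in kcs1/vip1 and -2.79 ± 0.58 in arg82. None of the 5 passed in vip1 in KCl, where 9.4% of all genes did and HSP30 was at 3.95. The part of these genes in the HSP30 values was not tested.

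Genes with a profile like that of HSP30 were sought among 3662 genes with a symbol and a value in all 27 comparisons. The median Pearson r with HSP30 was -0.07, and 10 genes were above 0.7. They were BTN2 (0.86), PRM4 (0.79), ATG41 (0.78), PDR12 (0.77), HLJ1 (0.76), PRM7 (0.74), SER3 (0.73), KTR2 (0.73), PIN3 (0.72) and ZPR1 (0.72). BTN2 encodes a protein that sorts misfolded proteins, HLJ1 a co-chaperone at the endoplasmic reticulum membrane, ATG41 a protein of selective autophagy and SER3 an enzyme of serine synthesis. The lowest were SAP190 (-0.80), SYT1 (-0.79), CDC50, TRS120 and RPB7 (-0.74 each). The comparison means share arrays of the same strains, so r describes likeness of profile with no p. Without the doubted arrays r was 0.81 for BTN2 and 0.73 for PDR12, and with all 54 arrays as points 0.73 and 0.67. By Spearman's rho BTN2 was at 0.77 and PDR12 at 0.78, in places 2 and 1, whereas HLJ1 dropped to 0.43, in place 74. PIN3 and ZPR1 lay outside the first 10 under each of the 4 other measures, in places 11 to 32.

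HSP30 and BTN2 were both at their highest in heat. BTN2 was 8.64 on the array labelled kcs1/vip1 in heat and 6.94 in wild type heat, where HSP30 was 9.82 and 9.39. In vip1 in KCl BTN2 was 2.98, 2.94 and 2.16 beside 3.80, 3.87 and 4.19 for HSP30. In arg82 in KCl it was only 0.57, 0.62 and 0.73, beside 5.10, 4.89 and 5.88. ATG41 was 8.46 and 7.15 on the same pair of heat arrays. In wild type in KCl it was -1.07, -2.39 and -2.43, whereas HSP30 was -0.71, 1.39 and -0.19. Among the general stress genes r with HSP30 was -0.08 for HSP12 and 0.60 for HSP104, and for PMA1 it was 0.39.

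**Figure D5:**
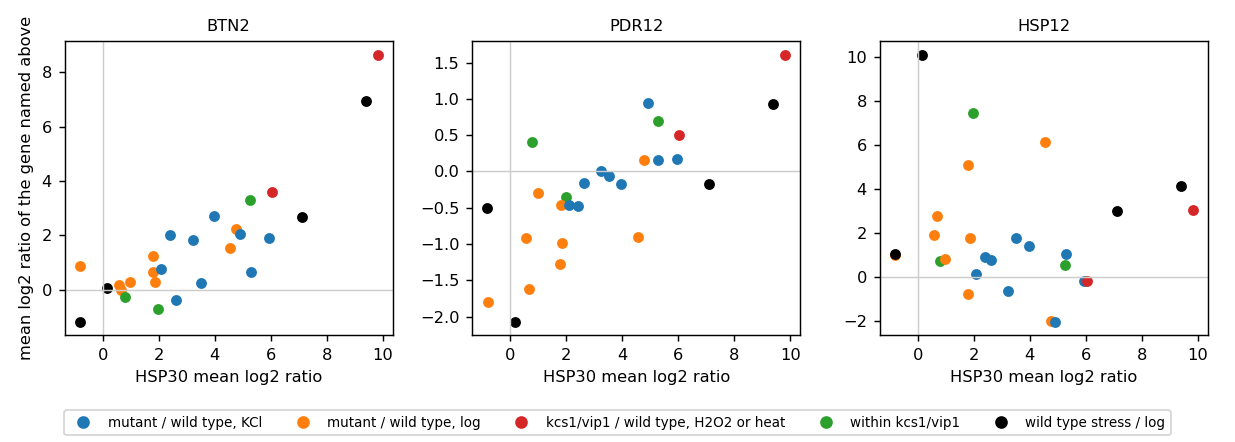
Mean log2 ratio of BTN2, PDR12 and HSP12 (vertical axes) against that of HSP30 (horizontal axis), with 1 dot per comparison coloured by its kind. The dots of BTN2 and PDR12 follow HSP30 upwards (r = 0.86 and 0.77), while those of HSP12 do not (r = -0.08), and HSP12 stands at 10.08 where HSP30 is at 0.16, in wild type in KCl.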

How the data were processed

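The authors deposited 1 column of log2 ratios per array. That they are log2 is read from the values, which are signed, centre near 0 and reach 15.58 in size; the scanner software, normalization and log base are not given in the sources used here, and intensities were not used. Of 6317 entries 61 control spots were left out, and probes of 1 symbol were averaged. Of 6256 probes 4075 had 1 gene symbol, none several and 2181 none; 129 symbols were updated and 4 kept unmatched. In 3 columns with more decimals 407 exact zeros were taken as missing, and each array then held 5216 to 6206 values.

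Arrays were grouped by their labels. HSP30 is described without a test. Other genes were tested with limma 3.58.1 in R 4.3.3, 1 coefficient per comparison over 54 arrays (27 residual and 4.63 prior degrees of freedom), for genes with at least 2 values, at a Benjamini-Hochberg adjusted p of 0.05 within each comparison. KCl minus log was a contrast of this model. On simulated data the model recovered 93 to 100% of log2 changes of 2 and 53 to 73% of changes of 1, over the 6 comparisons simulated. It also called 4 to 15 unchanged genes in each. The simulated noise was independent between arrays, whereas arrays of a slide correlated at 0.298 in the data. These rates therefore need not hold for the real arrays. HSP30, its lists and the tests were chosen with earlier results of these data known.

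The genes named are HSP30, its paralogs, the altered genes, the 10 most and 5 least alike, the 2 nearest neighbours on each side, the 3 largest members of a list that passed, and PMA1, PDR12, HSP12 and HSP104. Alternatives were array centring, equal array spread, slide as a block, only genes on every array, robust moderation, the sign of dye-swapped arrays, leaving out doubted arrays and each array in turn, and other measures of likeness. Keeping exact zeros and leaving out the kcs1/vip1 H2O2 arrays were added after the data were seen. Python 3.11.15 was used for tables and figures.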

Additional observations from a re-analysis of the deposited data

Results flagged for a closer look

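HSP30 in vip1 over wild type was above 0 on all 3 arrays in KCl and below 0 on both arrays in log growth, so the conditions moved opposite ways; the difference of the means was 4.76, and it was not tested because HSP30 was chosen with its values known. For other genes the mutant over wild type ratio differed between KCl and log growth by a limma contrast. In kcs1/vip1 the difference was -2.56 for YRO2 (adjusted p = 7.9e-05), 1.08 for PDR12 (adjusted p = 0.0256), -6.31 for HSP12 (adjusted p = 9.02e-06) and -1.43 for HSP104 (adjusted p = 0.000161). In arg82 it was 1.44 for PDR12 (adjusted p = 0.0405) and -4.07 for HSP12 (adjusted p = 0.046). In vip1 it was 1.63 for PDR12 (adjusted p = 0.0167), and in Rpd3ibs -1.11 for HSP104 (adjusted p = 0.0359). With slide as a fixed block the calls of PDR12 in kcs1/vip1 (0.86) and arg82 (1.17) and of HSP12 in arg82 (-3.48) were lost, and the others passed. With each array left out in turn, the calls of YRO2, HSP12 and HSP104 in kcs1/vip1 passed each time, and each of the others was lost without at least 1 array.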

How the results depend on the processing

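HSP30 values changed sign in wild type KCl, from 0.16 to -0.45 without the second array and -0.19 as the median of arrays, and in the KCl response of rpd3, from 0.30 to -0.74 with equal spreads. Its 27 alternative values for the KCl response within a strain moved by less than the combined SD of the groups. Of those for its ratios 98 moved by less than the SD of their own group, while 16 moved by more. For groups of 1 array the pooled SD of 0.86 was used instead. With array spreads made equal HSP30 was 4.24 in kcs1/vip1 KCl, 5.09 in vip1 KCl, 3.11 in snt1 KCl, 1.72 in Rpd3ibs KCl, 2.90 in rpd3 KCl, 3.73 in rpd3 log, 1.49 in Vip1D487A log, 1.16 with rapamycin in kcs1/vip1 KCl, 8.66 in kcs1/vip1 H2O2, 4.81 in wild type H2O2, 7.41 in kcs1/vip1 heat, 5.52 in wild type heat and 9.17 for kcs1/vip1 H2O2 over log. Array centring gave 2.12 in Rpd3ibs KCl, and the turned sign 0.33 in log and 0.87 in KCl for Vip1D487A. The cause was not tested.

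With equal spreads the genes called were 1883 in kcs1/vip1 KCl (2913 without this scaling), 1817 in vip1 KCl (542), 2164 in wild type KCl (3571), 1488 in wild type H2O2 (2490), and for KCl minus log 972 in kcs1/vip1 (1554) and 807 in vip1 (306). With slide as a random block KCl minus log gave 817 calls in vip1 and 361 in arg82 (196), and with slide as a fixed block 819 in vip1. For ratios against 0 the fixed block was not run, because a shift common to all slides then has no fixed origin. With each array left out the calls ran from 73 to 181 in vip1 KCl, 56 to 304 in vip1 log (1038), 956 to 1334 in arg82 KCl (1858), 59 to 153 in arg82 log (893) and 1061 to 1787 in wild type H2O2, and for KCl minus log from 5 to 161 in vip1 and 27 to 128 in arg82. Where 1 array was left, it was assumed to vary like the other groups.

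Of 43 calls of YRO2, MRH1, PMA1, PDR12, HSP12 and HSP104, 40 remained with equal spreads, 42 with slide as a random block, and 43 with array centring, robust moderation or exact zeros kept. Of 8 calls for KCl minus log 5 remained with slide as a fixed block, and those of PDR12 in kcs1/vip1 (0.86) and arg82 (1.17) and of HSP12 in arg82 (-3.48) did not. Of 128 refits without an array, 71 kept the call; HSP12 in ipk1 log was 2.77 with both arrays, -0.45 without its second and 5.99 without its first. By replicate number no paired analysis was possible because the labels number no replicates, whereas arrays of a strain on a shared slide were paired by slide, with slide as a block, as above. The number of arrays limits the precision.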

Other observations

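On the array that entered no comparison, because its title sets kcs1/vip1 in KCl against kcs1/vip1 while both of its channels are described as KCl, HSP30 was 0.75 and HSP12 was 7.10. The array of kcs1/vip1 in KCl over log growth with settled labels had HSP30 at 1.97 and HSP12 at 7.42.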
